A study of Homo sapiens with 6 samples.

Results

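The proteasome genes described here are the rows of the table whose symbol is PSMA, PSMB, PSMC or PSMD followed by digits, without the 3 subunits of the immunoproteasome (PSMB8, PSMB9 and PSMB10). They are 34 of 16659 genes, and all 34 passed the filter on low values that left 16219 genes for testing. RNA was sequenced from HepaRG, a human liver cell line labelled as a hepatic stem cell line from a cancer, in 3 libraries of wild-type cells, the control group, and 3 libraries of cells with a functional knockout of the pregnane X receptor (PXR). PXR is a nuclear receptor, encoded by NR1I2, that binds many drugs and switches on drug metabolism genes. No drug was given to either group, and how the knockout was made, or from how many clones, is not given in the sources used here. Levels are in scaled CPM, the linear values of the deposited table, in which library sizes had been rescaled. A level is given with its SD (n = 3) where a mean is shown. A change is the fitted difference of log2(scaled CPM + 0.5), positive where the knockout was higher, with its standard error (SE).

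The 26S proteasome degrades proteins that carry ubiquitin chains. Its 20S core is a barrel of alpha rings (PSMA) around beta rings (PSMB), whose beta1, beta2 and beta5 subunits cut peptide bonds inside the barrel. The 19S particle caps the barrel. Its base holds a ring of ATPases (PSMC) that unfold substrates and PSMD1, PSMD2 and PSMD4 beside them, and its lid (other PSMD genes) contains PSMD14, which removes ubiquitin. PSMD5, PSMD9 and PSMD10 carry subunit names but encode chaperones that help assemble the base. Each subunit takes a fixed place in the particle, and the genes lie scattered over many chromosomes.

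NR1I2, the targeted gene, read 8.24, 7.04 and 7.60 CPM in the wild type (libraries 1 to 3, the order used throughout) and 13.1, 13.4 and 14.3 CPM in the knockout. It was thus higher in the knockout, and a level summed over the whole gene does not check a functional knockout; below, knockout means the libraries with that label. Estimated depth ran from 11359204 to 20946006 reads in wild type and from 28154877 to 33393143 in the knockout, so the groups did not overlap in depth. Hepatocyte markers were present in both groups and all 8 rose, their summed level going from between 2226 and 2298 CPM to between 42958 and 44161 CPM. Of 7 stellate and mesenchymal markers 6 were tested, 4 rose and 2 fell, and they summed to 89.2 to 92.9 CPM in wild type and 404 to 420 CPM in the knockout. Of 8 leukocyte markers 4 were tested (2 rose, 2 fell), summing to 14.6 to 17.9 and 22.8 to 24.3 CPM. Of 6 bile duct markers 4 were tested (2 rose, 2 fell), summing to 489 to 515 and 373 to 399 CPM. Of 5 endothelial markers 2 were tested (1 rose, 1 fell), summing to 54.8 to 55.1 and 215 to 222 CPM, nearly all of it KDR. Single genes also weighed most in other sums. Among bile duct markers SPP1 fell from 382 ± 12.4 to 43.6 ± 1.46 CPM, while KRT19 rose from 111 ± 2.89 to 334 ± 12.2 CPM. Most of the stellate and mesenchymal sum was DCN, at 63.1 ± 2.61 and 335 ± 9.40 CPM. PTPRC, CD3E, CDH5, VWF and EPCAM, defining markers of leukocytes, endothelium and biliary cells, were not analysed here. The part of these differences and of depth in the results below was not tested, and in RNA from whole cultures fewer cells of a type and less RNA per cell cannot be told apart.

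Promoters were compared because proteasome genes are known to be switched on together by NFE2L1 and NFE2L2, factors that pair with small MAF proteins on the antioxidant response element, here searched as TGACNNNGC. CCAAT, bound by NF-Y, and CGGAAG, the core of sites for ETS factors, were searched as well, all on both strands, in RefSeq windows (GRCh38.p14) of 300 bases, from 250 before to 50 after a start. Windows were found for 29 members and none for PSMA7, PSMB1, PSMB6, PSMB7 and PSMD4. The antioxidant element letters stood in a window of 9 of 29 members (31.0%), against 16.1% of all 27305 genes with a window and 19.4% of the tested ones. CCAAT stood in 16 of 29 (55.2%, against 39.7% and 43.7%) and CGGAAG in 19 of 29 (65.5%, against 22.6% and 36.2%). CGGAAG was found at 14 of 16 members that fell, 4 of 8 that rose and 1 of 5 that did not pass the test. In the same order, TGACNNNGC was found at 5 of 16, 2 of 8 and 2 of 5, and CCAAT at 10 of 16, 4 of 8 and 2 of 5. These splits were not tested. The 4 promoters printed are those of PSMA2, the largest rise with a window, PSMC4, the largest fall, and PSMD9 and PSMD3, the members with 2 matches to TGACNNNGC. Each is the 250 bases before the start, 5′ to 3′ on the gene's strand, and capitals mark the searched motifs. PSMA2 lies at chr7:42932175-42932424 (minus strand), PSMC4 at chr19:39970915-39971164, PSMD9 at chr12:121888540-121888789 and PSMD3 at chr17:39980557-39980806 (plus strand).
PSMA2: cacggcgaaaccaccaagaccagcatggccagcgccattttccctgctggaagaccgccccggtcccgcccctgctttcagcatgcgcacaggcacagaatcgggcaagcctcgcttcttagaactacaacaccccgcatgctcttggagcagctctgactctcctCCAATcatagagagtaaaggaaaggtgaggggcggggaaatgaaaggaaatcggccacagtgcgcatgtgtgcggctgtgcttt
PSMC4: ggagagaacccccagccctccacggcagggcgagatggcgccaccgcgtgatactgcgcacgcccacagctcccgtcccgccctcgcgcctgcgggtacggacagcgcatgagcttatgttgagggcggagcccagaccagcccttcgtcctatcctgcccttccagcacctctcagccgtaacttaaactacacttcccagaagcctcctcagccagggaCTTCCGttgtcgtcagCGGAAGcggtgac
PSMD9: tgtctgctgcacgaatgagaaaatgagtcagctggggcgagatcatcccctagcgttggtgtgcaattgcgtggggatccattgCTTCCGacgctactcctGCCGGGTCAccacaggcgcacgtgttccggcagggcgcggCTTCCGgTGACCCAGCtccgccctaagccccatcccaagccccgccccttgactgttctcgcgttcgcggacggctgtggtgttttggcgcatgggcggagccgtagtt
PSMD3: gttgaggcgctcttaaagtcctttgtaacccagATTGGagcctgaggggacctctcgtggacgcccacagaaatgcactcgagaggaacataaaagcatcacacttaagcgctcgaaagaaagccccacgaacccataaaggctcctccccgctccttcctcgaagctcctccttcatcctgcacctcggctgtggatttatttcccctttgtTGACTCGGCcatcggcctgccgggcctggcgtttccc

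In PSMA2 the capitals are 1 CCAAT, which begins 84 bases before the start. PSMC4 has CGGAAG on both strands, beginning 29 and 13 bases before the start, and its single TGACNNNGC match begins at base 28 after the start, outside the printed stretch. In PSMD9 the antioxidant element letters begin 149 and 102 bases before the start, on opposite strands, and CGGAAG is present on the reverse strand as well. PSMD3 has 1 match at 37 bases before the start and 1 at base 34 after it, and a reverse CCAAT far upstream. A match is a run of letters and not a measured binding site. The 4 genes did not share a direction: PSMA2 and PSMD9 rose, PSMC4 fell and PSMD3 did not pass the test, with values given by subunit below.

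Most proteasome genes differed between the groups, but by little and in both directions. With limma, 28 of 34 members passed an adjusted p of 0.05 (82.4%), against 79.9% of all genes tested, a share near the background. Of these, 18 fell (52.9%, against 39.6% of all genes) and 10 rose (29.4%, against 40.3%). The counts by part given below stand beside these same shares of all genes. No member reached 2-fold, while 22.8% of all tested genes and 14.8% of the 5625 genes with mean levels in the members' range did. Changes of at least 1.5-fold that passed the test were seen in 7 of 34 members (20.6%), against 41.7% of all genes. The median change of the members was -0.13, against 0.014 for all tested genes, and the median absolute change was 0.27, against 0.47. For the 5625 genes with mean levels in the members' range the median absolute change was 0.39. The groups did not overlap at 29 members (85.3%), against 80.8% of all genes. The labels do not state separate cultures for the replicates, and the p-values rest on a spread between libraries that may be technical.

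**Figure D1:**
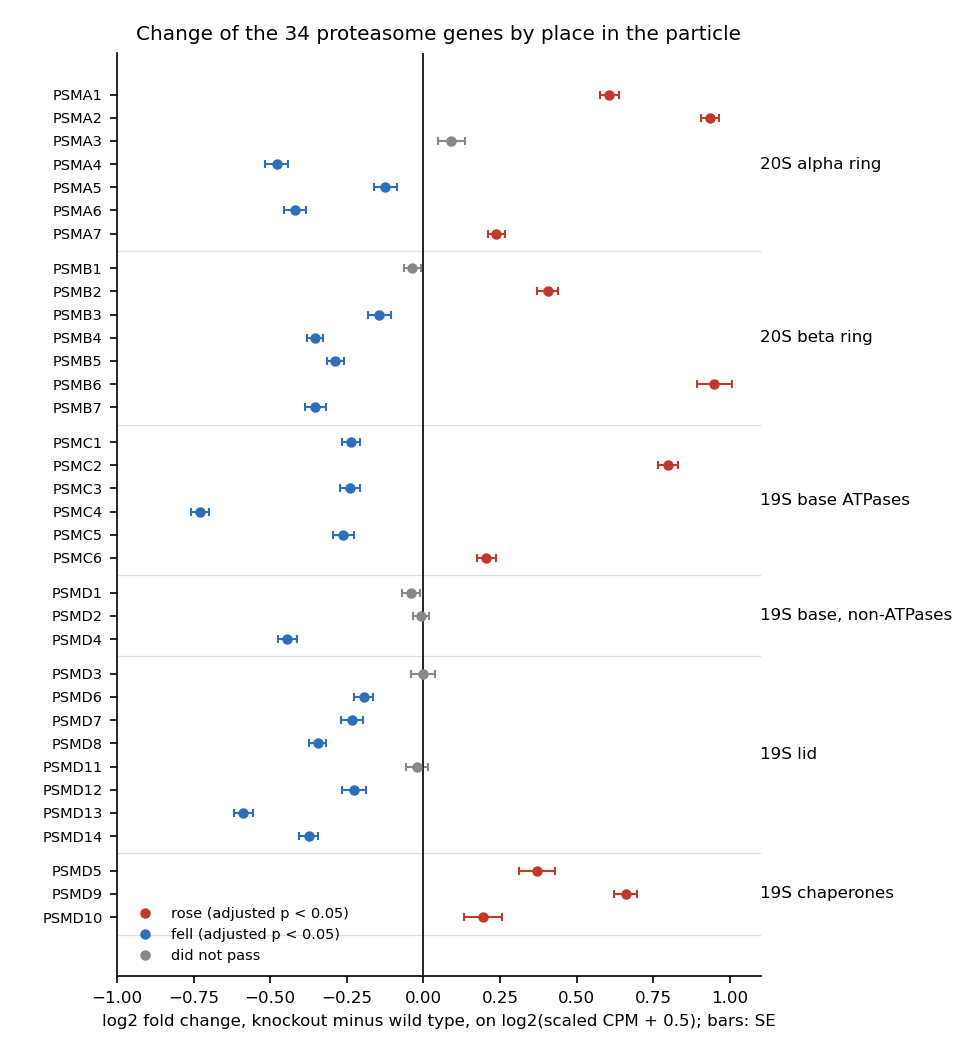
Log2 fold change of each of the 34 proteasome genes (knockout minus wild type, points; bars are the SE), grouped by place in the particle. Red genes rose, blue genes fell and grey genes did not pass the test; the 8 lid genes with PSMD names lie at or left of 0 and the 3 base chaperones right of it.

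The scale of the values bears on the split. The deposited columns sum to more in the knockout, and scaling all libraries to equal sums moved the median of all genes to -0.12. The members' calls then became 8 higher and 23 lower, or 8 and 23 again with small RNA genes left out of the sums, where the split over all genes moved from 6534 higher and 6426 lower to 5256 and 7869. Together the 34 members took 0.388%, 0.393% and 0.396% of all signal in the wild type and 0.351%, 0.342% and 0.346% in the knockout. That share was lower in all 3 knockout libraries. With equal sums, where values are shares of the total, the median change was -0.27 for members and -0.12 for all tested genes. A lower share was therefore not particular to the members. The deposited sum of the members was 3695 ± 55.6 CPM in wild type and 3591 ± 26.8 CPM in the knockout (SD, n = 3; exact two-sided permutation p = 0.10, the smallest that 3 against 3 allow).

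The outer ring of the core, formed by the 7 PSMA subunits, had members that rose and members that fell: 3 rose, 3 fell and PSMA3 did not pass. The tails of these subunits close the gate through which substrates enter the barrel. PSMA2 (chromosome 7, 42916857 to 42932223) stood at 81.1, 84.9 and 84.4 CPM in wild type and at 160.5, 159.5 and 160.1 CPM in the knockout. Every knockout library was close to 160 CPM, far above every wild-type library, and the log2 change was 0.94 ± 0.029 (limma adjusted p = 1.1e-12). PSMA1 (chromosome 11, 14504874 to 14643635) went from 139, 151 and 145 CPM to 224, 221 and 217 CPM, a change of 0.61 ± 0.032 (adjusted p = 3.2e-10). PSMA7, from 137, 134 and 140.4 CPM to 161, 161 and 164 CPM, rose by 0.24 ± 0.028 (adjusted p = 2.3e-06). For these 3 genes no library of either group reached the other. PSMA4, known for the tail that holds the gate shut, went the other way, from 147, 159.5 and 158 CPM to 113, 113 and 107 CPM, a change of -0.48 ± 0.037 (adjusted p = 2.1e-08). PSMA6 followed it closely, from 149, 162 and 161 CPM to 121, 118 and 113 CPM (-0.42 ± 0.037, adjusted p = 8.8e-08). PSMA5 fell by little, with all knockout values (103 to 106 CPM) just under the lowest wild-type value of 107 CPM (-0.12 ± 0.037, adjusted p = 0.0074), a call lost in a fit without the mean-variance trend (adjusted p = 0.0553). PSMA3 stood at 71.1, 81.2 and 79.3 CPM against 81.3, 82.6 and 82.5 CPM (0.091 ± 0.044, adjusted p = 0.072). Wild-type libraries 2 and 3 were close to the knockout there, and library 1, the shallowest, was lowest; without wild-type library 2 PSMA3 passed, at 0.13 (adjusted p = 0.0194), and without library 1 it stood at 0.033 (adjusted p = 0.365). With equal sums its sign turned, to -0.046 (adjusted p = 0.326). Library 1 was the lowest of its group at 21 of the 34 members. Changes within this ring therefore spanned from -0.48 to 0.94, with an SD of 0.52 over the 7 genes and SEs of at most 0.044.

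The beta ring carries the active sites, and its 3 catalytic subunits did not move together. PSMB6 (chromosome 17, 4796144 to 4798503), the beta1 subunit with caspase-like activity, stood at 33.3, 30.7 and 37.0 CPM in wild type. It stood at 64.2, 64.8 and 66.9 CPM in the knockout, the largest change of all 34 members (0.95 ± 0.057, limma adjusted p = 1.2e-09). PSMB7, the beta2 subunit with trypsin-like activity, went from 109, 101 and 103 CPM to 81.0, 82.7 and 81.2 CPM (-0.35 ± 0.034, adjusted p = 2.9e-07). PSMB5, the beta5 subunit with chymotrypsin-like activity and the main target of the drug bortezomib, went from 117, 116 and 119 CPM to 96.4, 95.3 and 95.9 CPM (-0.29 ± 0.028, adjusted p = 3.6e-07). The beta1 gene thus rose while the beta2 and beta5 genes fell, with no overlap of the groups at any of them. Of the structural beta subunits, PSMB2 rose, from 65.3, 62.7 and 62.6 CPM to 86.8, 83.2 and 83.1 CPM (0.41 ± 0.034, adjusted p = 6.6e-08). PSMB4, which like PSMB2 has no active site, fell from 209, 208 and 202 CPM to 163, 159 and 163 CPM (-0.35 ± 0.027, adjusted p = 2.0e-08), and PSMB3 fell by 0.14 on the log2 scale. PSMB1 stood at 143 to 150 CPM in wild type and 141 to 144 CPM in the knockout, and did not pass (adjusted p = 0.26).

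Cells can build a second set of catalytic subunits, PSMB9, PSMB10 and PSMB8, which replace PSMB6, PSMB7 and PSMB5 in the immunoproteasome and are known for induction by interferon gamma. PSMB9 stood at 6.76, 6.99 and 6.62 CPM in wild type and at 13.3, 13.7 and 13.4 CPM in the knockout, a change of 0.94 ± 0.077 (limma adjusted p = 4.5e-08). For PSMB6, the gene it replaces, the change was 0.95. The level of PSMB9 is uncertain, since its gene overlaps TAP1 on the other strand, as given below. Per length of the annotated transcript, PSMB9 made up 18.1% ± 1.79 of the summed level of this pair in wild type and 18.4% ± 0.42 in the knockout (SD, n = 3; exact permutation p = 0.80). PSMB10 went from 18.6 ± 2.49 to 21.1 ± 0.98 CPM and PSMB8 from 48.9 ± 3.40 to 52.0 ± 1.19 CPM, and neither passed (adjusted p = 0.0505 and 0.104). Without wild-type library 1 PSMB10 passed, at 0.29 (adjusted p = 0.00103), and without wild-type library 2 PSMB8 passed, at 0.14 (adjusted p = 0.00939). The immunoproteasome form took 17.2% ± 0.67 of the beta2 pair in the knockout against 12.5% ± 1.01 in wild type, and 38.4% ± 0.64 against 32.5% ± 1.70 of the beta5 pair. All knockout libraries lay above all wild-type libraries in both (exact permutation p = 0.10 each, the smallest possible; 3 pairs compared).

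**Figure D2:**
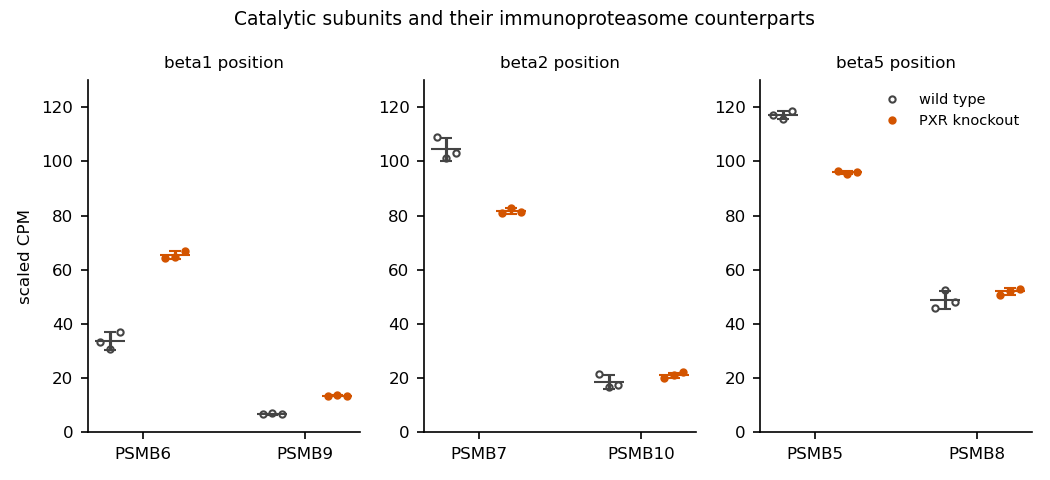
Scaled CPM of each catalytic subunit of the core and of the immunoproteasome gene that replaces it, in 3 wild-type (open) and 3 knockout (filled) libraries; dashes and bars are the mean and SD. PSMB6 and PSMB9 rise most, while PSMB7 and PSMB5 fall.

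The ATPase ring of the base had 2 genes that rose and 4 that fell. PSMC2 (chromosome 7, 103344254 to 103369395) went from 90.6, 96.3 and 97.2 CPM to 166, 162 and 167 CPM, a change of 0.80 ± 0.033 (limma adjusted p = 1.9e-11). PSMC6, from 96.2, 96.7 and 97.4 CPM to 115, 109 and 111 CPM, rose by 0.20 ± 0.031, a call lost with libraries scaled to equal sums (0.067, adjusted p = 0.0753). In both genes every knockout library was above every wild-type library. PSMC4 (chromosome 19, 39971005 to 39981441) went from 121, 126 and 124 CPM to 75.2, 74.0 and 73.6 CPM, the largest fall of the 34 members (-0.73 ± 0.030, adjusted p = 2.3e-11). PSMC1, PSMC3 and PSMC5 had changes between -0.26 and -0.24, each with an SE of at most 0.034 and no overlap of the groups. Although its members moved by up to 0.80, the ring as a whole summed to 616 ± 7.47 CPM in wild type and 604 ± 6.38 CPM in the knockout, and knockout library 1 lay above wild-type library 1 (exact permutation p = 0.20). The log2 ratio of the sums was -0.027. It moved to -0.25 without PSMC2, the highest in CPM over both groups, and turned to 0.11 without PSMC4, the highest in wild type.

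Beside the ATPases, the 2 large scaffold subunits of the base did not pass the test and the ubiquitin receptor fell. PSMD2 stood at 224 to 228 CPM in wild type and 222 to 230 CPM in the knockout (-0.0075 ± 0.026, limma adjusted p = 0.80). PSMD1 stood at 160 to 167 and 154 to 162 CPM (-0.040 ± 0.030, adjusted p = 0.23). Both overlapped between the groups, and both passed as falls with libraries scaled to equal sums, as did PSMB1, PSMD3 and PSMD11. PSMD4, which binds ubiquitin chains, went from 133, 134 and 137 CPM to 99.1, 96.2 and 101 CPM (-0.44 ± 0.031, adjusted p = 6.6e-09). Of the subunits outside the PSM naming, ADRM1, another ubiquitin receptor, fell from 64.0 ± 3.33 to 57.0 ± 1.30 CPM, and SEM1, a small lid subunit encoded on chromosome 7, rose from 50.6 ± 1.93 to 78.1 ± 1.61 CPM (0.62 ± 0.038).

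Of the 8 lid genes with PSMD names, 6 fell and none rose, with a median change of -0.23, while SEM1, named above, rose. Of all tested genes 39.6% fell and 40.3% rose. PSMD13 (chromosome 11, 236546 to 252984) fell most, from 106, 110 and 111 CPM to 71.6, 72.1 and 73.8 CPM (-0.59 ± 0.032, limma adjusted p = 4.0e-10). PSMD14, the enzyme that cuts ubiquitin off substrates, went from 128, 134 and 129 CPM to 102, 98.3 and 101 CPM (-0.37 ± 0.031, adjusted p = 4.7e-08). PSMD8 went from 130, 129 and 127 CPM to 100.1, 100.6 and 103 CPM (-0.34 ± 0.028). In all 3 of these genes the highest knockout library was far below the lowest wild-type library. PSMD6, PSMD7 and PSMD12 fell by less, with changes from -0.23 to -0.20. PSMD3 stood at 113, 113 and 124 CPM against 113, 116 and 120 CPM, and PSMD11 at 75.9 to 80.7 against 76.6 to 79.8 CPM; neither passed (adjusted p = 0.99 and 0.60). The lid genes summed to 838 ± 6.79 CPM in wild type and 704 ± 9.50 CPM in the knockout, a ratio of 0.840 (exact permutation p = 0.10). The lid was not tested against the other parts.

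The 3 base chaperones with PSMD names all rose, while a further base chaperone, PAAF1, fell by 0.63 on the log2 scale and 4 of 5 chaperones of the core fell. PSMD9 (chromosome 12, 121888731 to 121918297) went from 42.8, 43.9 and 44.5 CPM to 66.7, 71.6 and 69.8 CPM (0.66 ± 0.039, limma adjusted p = 1.0e-09). PSMD5 went from 32.1, 38.1 and 35.7 CPM to 46.4, 43.4 and 47.5 CPM (0.37 ± 0.059, adjusted p = 4.3e-05). PSMD10, also known as the oncoprotein gankyrin, went from 28.9, 34.8 and 32.2 CPM to 38.0, 35.6 and 36.0 CPM (0.19 ± 0.061, adjusted p = 0.0096). The groups of PSMD10 were separated by under 1 CPM, and its call was lost when libraries were scaled to equal sums (0.058, adjusted p = 0.38). It was also lost with the median of its 20 Mb neighbourhood taken out (0.0088, adjusted p = 0.90), and without wild-type library 1 the change was 0.12 (adjusted p = 0.0403). Of 5 core chaperones, 4 fell and none rose, where 39.6% of all tested genes fell and 40.3% rose. POMP, which guides beta ring assembly, fell from 130 ± 4.44 to 87.1 ± 1.67 CPM (-0.57 ± 0.033), PSMG4 from 25.7 ± 1.0 to 17.3 ± 1.28 CPM and PSMG1 from 33.5 ± 1.16 to 25.5 ± 0.86 CPM. The summed level of the 3 base chaperones went from 111 ± 6.62 to 152 ± 1.40 CPM (exact permutation p = 0.10); without PSMD9, the highest in CPM, its log2 ratio moved from 0.45 to 0.29.

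**Figure D3:**
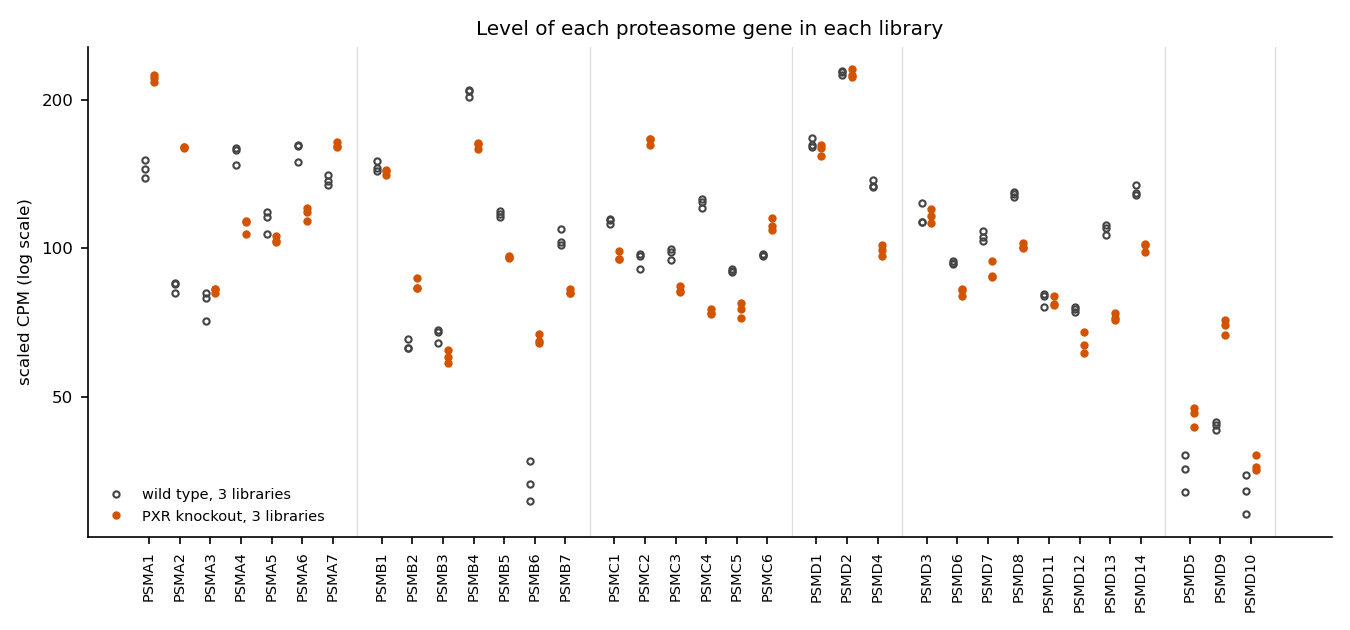
Scaled CPM of the 34 proteasome genes in each of 3 wild-type (open) and 3 knockout (filled) libraries on a log scale, ordered by place in the particle. Groups are apart at 29 genes; PSMA2, PSMB6 and PSMC2 stand out upward and PSMC4 and PSMD13 downward.

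Summed by part, the core was higher and the cap lower in every knockout library on the deposited scale, but with libraries scaled to equal sums the core was lower too, its log2 ratio turning from 0.037 to -0.10. The 14 core genes summed to 1607 ± 29.8 CPM in wild type and 1649 ± 10.6 CPM in the knockout, a ratio of 1.03, and the 17 genes of the 19S particle to 1978 ± 19.7 and 1791 ± 23.9 CPM, a ratio of 0.906 (exact permutation p = 0.10 for each). The alpha genes summed to 868 ± 32.7 against 957 ± 7.08 CPM and the beta genes to 738 ± 5.85 against 692 ± 3.67 CPM. With equal sums the log2 ratio of the alpha sum was 0.0028 in place of 0.14; it was 0.026 without PSMA1, the highest in CPM over both groups, and 0.24 without PSMA6, the highest in wild type. Without PSMB4 that of the beta sum was -0.0045 in place of -0.094. Such sums weigh genes by length as well as by number of transcripts.

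The members with the largest rises each lay among genes that were mostly higher in the knockout. For each gene, the median change of all other tested genes within 10 Mb on either side was taken, leaving members out. The 5 members with the largest rises, PSMB6, PSMA2, PSMC2, PSMD9 and PSMA1, were also the 5 with the highest window medians, from 0.37 to 0.65. The windows of the other 29 members had medians from -0.13 to 0.27. PSMB6 lay on chromosome 17 among genes with a median change of 0.65, PSMC2 and PSMA2 on chromosome 7 with medians of 0.47 and 0.37, PSMD9 on chromosome 12 with 0.47 and PSMA1 on chromosome 11 with 0.41. Over whole chromosomes the medians were 0.077 for 17, 0.43 for 7, 0.33 for 12 and 0.047 for 11. The window of PSMA2 was thus not above its chromosome. Among the 1646 other genes in windows with a median of at least 0.37, 67.2% rose and 16.8% fell, against 40.3% and 39.6% of all tested genes. These genes were picked by the changes of their neighbours in the same data, so a majority of rises was largely built in. With the window median taken out, the changes of PSMB6, PSMA2, PSMC2, PSMD9 and PSMA1 were 0.30, 0.56, 0.33, 0.19 and 0.20. All 5 changes stayed above their neighbours' median, but these members were picked as the largest rises. The medians taken out were all positive, so smaller changes follow by arithmetic.

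Most of the other members that rose did not lie in such windows. PSMB2 rose by 0.41 with a window median of -0.13 and PSMC6 by 0.20 with -0.094. PSMA7 rose by 0.24 with 0.0039, PSMD5 by 0.37 with 0.0011 and PSMD10 by 0.19 with 0.19. With the window median taken out PSMB2 stood at 0.54. The members that fell did not show such a pattern either. Their windows had medians from -0.089 to 0.27, and 7 of the 18 fell in windows with a median above 0. PSMC4 lay in a window with a median of -0.058 and PSMD13 in one with 0.27, so that PSMD13 stood 0.86 below its neighbours on the log2 scale. Over all 34 members the change and the window median had Pearson's r = 0.67 and Spearman's rho = 0.29, and without the 5 top members r = -0.22 (n = 29). These are descriptions, since several members share a window and all share the same 6 libraries. Neighbours could also differ: PSMD5 and PSMB7 lie 3.54 Mb apart on chromosome 9 and changed by 0.37 and -0.35. PSMD4 and PSMB4, 0.145 Mb apart on chromosome 1, changed by -0.44 and -0.35. SEM1, the lid subunit that rose, also lay in a chromosome 7 window with a median of 0.50.

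**Figure D4:**
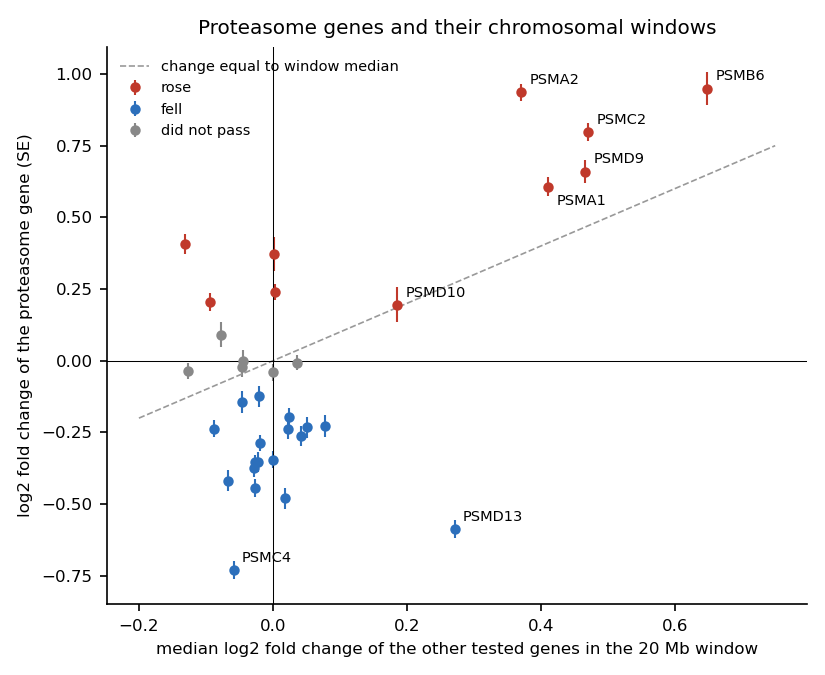
Log2 fold change of each of the 34 proteasome genes (vertical; bars are the SE) against the median log2 fold change of the other tested genes within 10 Mb on either side (horizontal). PSMB6, PSMA2, PSMC2, PSMD9 and PSMA1 sit at upper right, above the dashed line of equal change, and PSMD13 lies far below it.

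Some levels are uncertain because genes overlap or have near copies; shared reads were not measured. GENCODE names 30 pseudogenes after 11 members, 13 of them after PSMC1, 4 after PSMA6 and 3 each after PSMA2 and PSMD10. The only one with a row, PSMC1P1, stood at 10.6 ± 2.66 and 9.36 ± 0.66 CPM, against 113 ± 1.43 and 96.3 ± 2.12 CPM for PSMC1. PSMA2 overlaps MRPL32 on the other strand, which went from 39.3 to 60.7 CPM, and a transcript on its own strand listed as AC010132.3, from 21.8 to 28.3 CPM. PSMD9 overlaps WDR66 on its own strand, which went from 7.38 to 17.5 CPM. PSMC1 overlaps NRDE2 on the other strand, which went from 26.9 to 16.1 CPM. Further members overlap other genes as well. PSMC5 overlaps FTSJ3 on the other strand, which went from 206 to 82.1 CPM, while PSMC5 changed by -0.26. PSMB9, of the immunoproteasome, overlaps TAP1 and PSMB8, both on the other strand, and TAP1 went from 51.8 to 82.1 CPM. Whether counting used the strand is not given in the sources used here, so the reads of such pairs may not be told apart. Each member rested on at least 1791 estimated reads over the 3 wild-type libraries and 3350 over the knockout. Per kilobase of the longest principal transcript in GENCODE, wild-type levels ran from 10.2 CPM for PSMD5 to 214 CPM for PSMB4. This order depends on which transcript is used: PSMA4 stood at 35.1 CPM per kilobase with the longest of its principal transcripts, of 4411 bases, and the shortest has 1094 bases.

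Other genes of the ubiquitin system were split as well. For this list and those after it, 39.6% of all tested genes fell and 40.3% rose. The lists are short, and their counts were not tested against these shares. Of 10 activators, inhibitors and adaptors, 8 fell and 2 rose (median -0.30). PSME4, an activator of nuclear proteasomes, fell from 77.2 ± 1.77 to 50.4 ± 1.93 CPM, PAAF1, a chaperone of the base, from 27.6 ± 0.51 to 17.7 ± 0.20 CPM, and the inhibitor gene PSMF1 from 97.5 ± 2.47 to 68.4 ± 1.49 CPM. PSME1 and PSME2, which form 1 activator ring together and lie near each other on chromosome 14, went apart: PSME1 from 111 ± 6.27 to 91.6 ± 0.55 CPM and PSME2 from 85.3 ± 1.0 to 102 ± 1.5 CPM. ZFAND5, which stimulates the proteasome, rose from 211 ± 7.74 to 319 ± 9.58 CPM. Of 4 ubiquitin editors bound to the proteasome, UCHL5 fell from 50.5 ± 2.10 to 31.4 ± 0.80 CPM, and UBE3C, on chromosome 7, rose from 146 ± 2.66 to 228 ± 2.54 CPM.

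Among 9 regulators of proteasome genes, 3 rose and 5 fell. NFE2L1, the factor that raises proteasome genes when the proteasome is blocked, stood at 439 ± 10.7 and 481 ± 12.4 CPM (0.13 ± 0.028, limma adjusted p = 0.00065), and its sign turned with equal sums (-0.0063, adjusted p = 0.85), while with quantile normalization it was 0.0012 (adjusted p = 0.969). DDI2, the protease that activates it, rose from 78.7 ± 2.37 to 111 ± 2.21 CPM, while NGLY1, the glycanase that also processes it, fell from 67.9 ± 0.40 to 51.1 ± 2.03 CPM. Of its small MAF partners, MAFF fell from 22.9 ± 1.1 to 8.39 ± 0.40 CPM and MAFG from 78.3 ± 3.23 to 56.3 ± 0.48 CPM, and MAFK rose from 47.5 ± 1.60 to 70.8 ± 3.68 CPM. MAFF lies on chromosome 22 in a window with a median of -0.86 and MAFK on chromosome 7 in one with 0.40. NFE2L2 fell by 0.15 on the log2 scale, in a window with a median of -0.33, and with that taken out it stood at 0.18 (adjusted p = 0.000615).

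Of VCP and 6 of its cofactors, 3 rose, 3 fell and 1 did not pass. VCP, the unfolding ATPase that delivers substrates, rose from 288 ± 11.6 to 483 ± 15.1 CPM, and its cofactor gene FAF1 fell from 108 ± 1.27 to 58.1 ± 1.12 CPM. Of 6 shuttle factors, which carry ubiquitylated proteins to the proteasome, 2 rose and 3 fell. RAD23B rose from 251 ± 6.54 to 341 ± 6.88 CPM and UBQLN4 fell from 43.3 ± 0.70 to 22.6 ± 1.41 CPM.

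The COP9 signalosome, a complex related to the lid in subunit make-up, fell at 5 of its 9 genes and rose at 1, with a median of -0.30. COPS8 fell from 206 ± 5.68 to 122 ± 0.55 CPM, COPS7A from 35.5 ± 0.75 to 21.5 ± 1.31 CPM and GPS1 from 95.6 ± 2.12 to 61.4 ± 2.76 CPM. Genes of MHC class I and peptide loading, which present the peptides that proteasomes make, rose at 6 of 9 and fell at 2 (median 0.40). HLA-C rose from 146 ± 8.46 to 266 ± 11 CPM. TAP1, which overlaps PSMB9 on the other strand, rose from 51.8 ± 1.44 to 82.1 ± 3.21 CPM, while TAP2 fell from 70.5 ± 6.63 to 39.6 ± 0.57 CPM. HLA genes have near-identical relatives and their levels are uncertain.

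**Figure D5:**
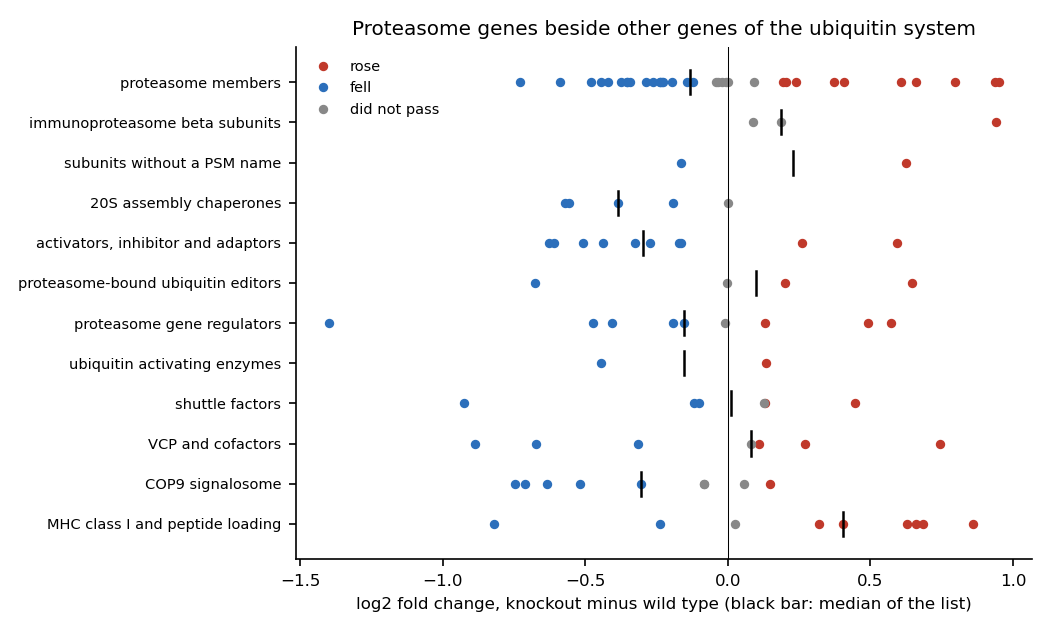
Log2 fold changes of the 34 proteasome genes and of lists of other genes of the ubiquitin system and antigen presentation (red rose, blue fell, grey did not pass; the black bar is the median of the list). The core chaperones, the activators and the COP9 genes lie mostly left of 0 and MHC class I genes mostly right of it.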

How the data were processed

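RNA of 6 libraries (3 per group) was measured. Groups and replicate numbers came from sample titles, which begin with RSEM, the name of a program that estimates read counts. Per the labels' protocols, a stranded mRNA kit was used; per the submitters' processing notes, Bowtie2 (after Trim Galore and FastQC), edgeR and limma were used with hg38, with versions not given in those notes. The deposited values are a linear signal, called scaled CPM here, although the table is named for log2 values: the low values of each column fall on a grid that gives the worth of 1 read, and from it the depths. Of values under 20 reads, 67.9% to 76.4% were whole within 0.006 of a read, so no count test was run. Of 16673 rows, 14 second copies of pseudoautosomal genes were left out and 21 symbols turned into dates were restored; 16608 identifiers matched GENCODE 29 (GRCh38).

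Genes above 1 CPM in at least 3 libraries were tested on log2(value + 0.5) with limma 3.58.1 in R 4.3.3 (two-sided moderated test, prior variance following the mean, Benjamini-Hochberg over 16219 genes). The design allowed for log2 or linear values. Sums and shares were compared by exact permutation. On simulated counts (16219 genes) the fit recovered 58% of 1.2-fold, 98% of 1.5-fold and 100% of 2-fold changes, with 4 false calls of 182. There, 50 genes were changed per fold, balanced up and down, at an assumed dispersion of 0.002, and all others were unchanged. The real data had far more calls (79.9% of genes), so these rates may not carry over.

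All members are named; other genes come from fixed lists (for each, up to 3 rises and falls, and any gene of short lists). One list is not reported here. Members and lists were chosen with earlier results of these data known. MRPL32, AC010132.3, WDR66, NRDE2 and FTSJ3 were named for overlapping members, and the comparison of neighbours was picked after the values were seen. Alternatives were other scalings, pseudocounts, filters, a fit without trend, a replicate block, removal of window medians, a fold minimum and leaving out each library; the 10 Mb window, and leaving the member of highest wild-type level out of sums, were chosen after seeing the data. Python 3.11.15, pandas 2.3.3, scipy 1.17.1 and matplotlib 3.10.9 were used.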

Additional observations from a re-analysis of the deposited data

How the results depend on the processing

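The member counts of 10 higher and 18 lower stayed within 1.5 times under every alternative except a 1.5-fold minimum, which left 7 members (5 higher, 2 lower) and, over all genes, 6763 (3510 higher, 3253 lower). Leaving out 1 library at a time gave 28 to 29 members and 12444 to 12887 genes. Under each alternative other than the fold minimum, 26 to 28 of the 28 called members kept their call and direction. Same-numbered libraries did not deviate together (correlations of -0.020, -0.061 and 0.025). Such correlations cannot show whether same-numbered libraries were handled together. With the replicate block the members called were 28 and the genes 12916.

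Of members called in either fit, signs turned only with window medians taken out: PSMB1 to 0.091 (20 Mb and 10 Mb), and with 10 Mb PSMD10 to -0.068, PSMD2 to 0.082 and PSMD6 to 0.017. Signs also turned where neither fit made a call, for PSMA3 with equal sums, PSMD11 and PSMD3 with windows, and PSMD2 and PSMD3 without single libraries. Among other genes, equal sums gave NFE2L1 -0.0063, and -0.025 when small RNA genes were left out of the sums. Taking out the 20 and 10 Mb medians turned NFE2L2 to 0.18 and 0.33 and UFD1 to 0.076 and 0.083.

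The log2 ratios of summed levels moved with scaling. With equal sums, and with equal sums without small RNA genes, they were 0.31 and 0.29 for the base chaperones, -0.16 and -0.18 for the ATPases, -0.26 and -0.28 for the other base genes, -0.39 and -0.41 for the lid, 0.0028 and -0.016 for the alpha ring and -0.23 and -0.25 for the beta ring. Without the member of highest level over both groups they were 0.29, -0.25, -0.21, -0.30, 0.026 and -0.0045 in the same order. Without the member of highest wild-type level, an alternative chosen after seeing the data, they were 0.29, 0.11, -0.21, -0.23, 0.24 and -0.0045, so the sign of the ATPase sum depends on the member left out. Leaving out libraries changed no sign of these sums.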
